A study of Drosophila melanogaster with 54 samples.

Results

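The 9 genes described here encode subunits of the mitochondrial protein import translocases of Drosophila melanogaster: Tom20, mge and Tom40 of the outer membrane, Tim8, Tim13, Tim9a and Tim10 of the intermembrane space, and Tim17b and Tim23 of the inner membrane. They were chosen by symbol from a table of 13926 gene symbols, and all 9 passed the filter on low values that left 12555 genes for testing. RNA was measured in whole 10-day-old males of 6 strains reared at 18, 25 or 29 °C, with 3 libraries in each of 18 groups and 54 libraries in all. Of the strains, 5 express FLucDM-GFP, a misfolding-prone firefly luciferase joined to green fluorescent protein, which is located mainly in the cytoplasm (Cyto, 1 copy), the nucleus (NLS, 1 copy or 2 copies) or the mitochondria (Mito, 1 copy or 2 copies). The isogenic w1118 strain carries no FLucDM and was the control for each of them. Neither the promoter of the transgene nor the number of flies per library is given in the sources used here.

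Most mitochondrial proteins are made in the cytosol and enter through the TOM complex of the outer membrane, in which receptors such as Tom20 and Tom22 bind targeting sequences and Tom40 forms the channel. Small TIM chaperones in the intermembrane space then shield hydrophobic clients, Tim9 with Tim10 and Tim8 with Tim13 forming hexamers, while proteins with a presequence pass through the inner membrane at the TIM23 complex, built around Tim17 and Tim23. In flies mge encodes the Tom22 receptor. Flies also carry several further copies of import genes, and tomboy20 and tomboy40 are known in this species as variants of Tom20 and Tom40 expressed in the male germline.

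The 9 genes lie at separate places in the genome. On build BDGP6, Tom20 lies at 3L:20000644-20002446 on the plus strand, mge at 3L:3907852-3909931 on the minus strand and Tom40 at X:7736893-7739978 on the plus strand. Tim8 lies at X:11368445-11369283 and Tim9a at X:13385210-13385893, both on the plus strand. Tim13 lies at 3L:11774060-11774501 and Tim10 at 2R:21690215-21691139, both on the minus strand. Tim17b lies at 3R:3734855-3745306 on the plus strand and Tim23 at 2L:23312465-23313578 on the minus strand. The annotation places 691 exon bases of Tim10 inside CG42497 on the same strand and 39 inside CG10307 on the other strand, and 29 exon bases of Tom20 inside Gabat on the other strand, so reads of these genes may have been shared in the authors' counting.

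All values are TPM, transcript abundances scaled by gene length and by the total of each library, and the read depth behind them is unknown. Differences are on the log2(TPM + 1) scale, tested with limma over all 12555 genes and adjusted by Benjamini-Hochberg, and a gene is said to have risen or fallen only when its adjusted p was under 0.05. The labels number the replicates without saying whether they were separate cultures, so the p-values cover only the spread from library to library, which may be technical. Of 17 testis markers 16 were in the table, none of them at 0, and they summed to 5347 to 8717 TPM in transgene libraries and 6388 to 8851 TPM in w1118 libraries. Yolk and eggshell genes, markers of females, summed to 5.27 to 56.1 TPM in transgene libraries and 9.10 to 22.6 TPM in w1118 libraries. In RNA of whole flies, fewer cells of a type and less RNA per cell cannot be told apart. Library 1 of Cyto flies at 29 °C stood apart from its group in the testis markers, with 5557 TPM beside 6853 and 7269 TPM in the other libraries, and library 1 of Mito 1 copy flies at 29 °C had 5777 TPM beside 7026 and 6519 TPM. The w1118 libraries at 25 °C were uneven as well, with 7091, 6388 and 7852 TPM.

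All 9 genes were well expressed in every library. Their mean over all libraries exceeded that of 78% (Tom40 and Tim9a) to 96% (Tim23) of the genes in the table. Tim23, the presequence channel subunit, had the highest level, with 241 to 341 TPM across libraries. Its partner Tim17b had 173 to 240.2 TPM and the receptor mge had 166 to 258 TPM. The highest mge libraries reached into the range of Tim23, and those of Tim17b ended just below it. Tim10 (120.1 to 178 TPM) and Tom20 (117 to 172 TPM) came next and covered nearly one range. Tim8 had 82.6 to 111 TPM, and Tim13, which with Tim8 forms a hexamer, had 59.7 to 144 TPM. Tim9a (45.0 to 69.5 TPM) and the channel gene Tom40 (42.7 to 72.6 TPM) were lowest and overlapped.

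Replicates were close in most groups. The median coefficient of variation within groups lay between 2.15% for Tim23 and 7.08% for Tim13. Its highest value in any group was 14.4% for Tim13, 10.6% for Tim10, 9.81% for Tim9a and 6.27% to 7.41% for the other genes. The highest group mean was 1.90 times the lowest for Tim13, 1.53 times for Tom40 and 1.44 times for mge. Tim8, Tom20 and Tim17b varied least between groups, with ratios of 1.23, 1.28 and 1.29. The lowest group mean of Tim13 was 69.9 TPM in Cyto flies at 29 °C and its highest was 133 TPM in w1118 flies at 29 °C.

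**Figure D1:**
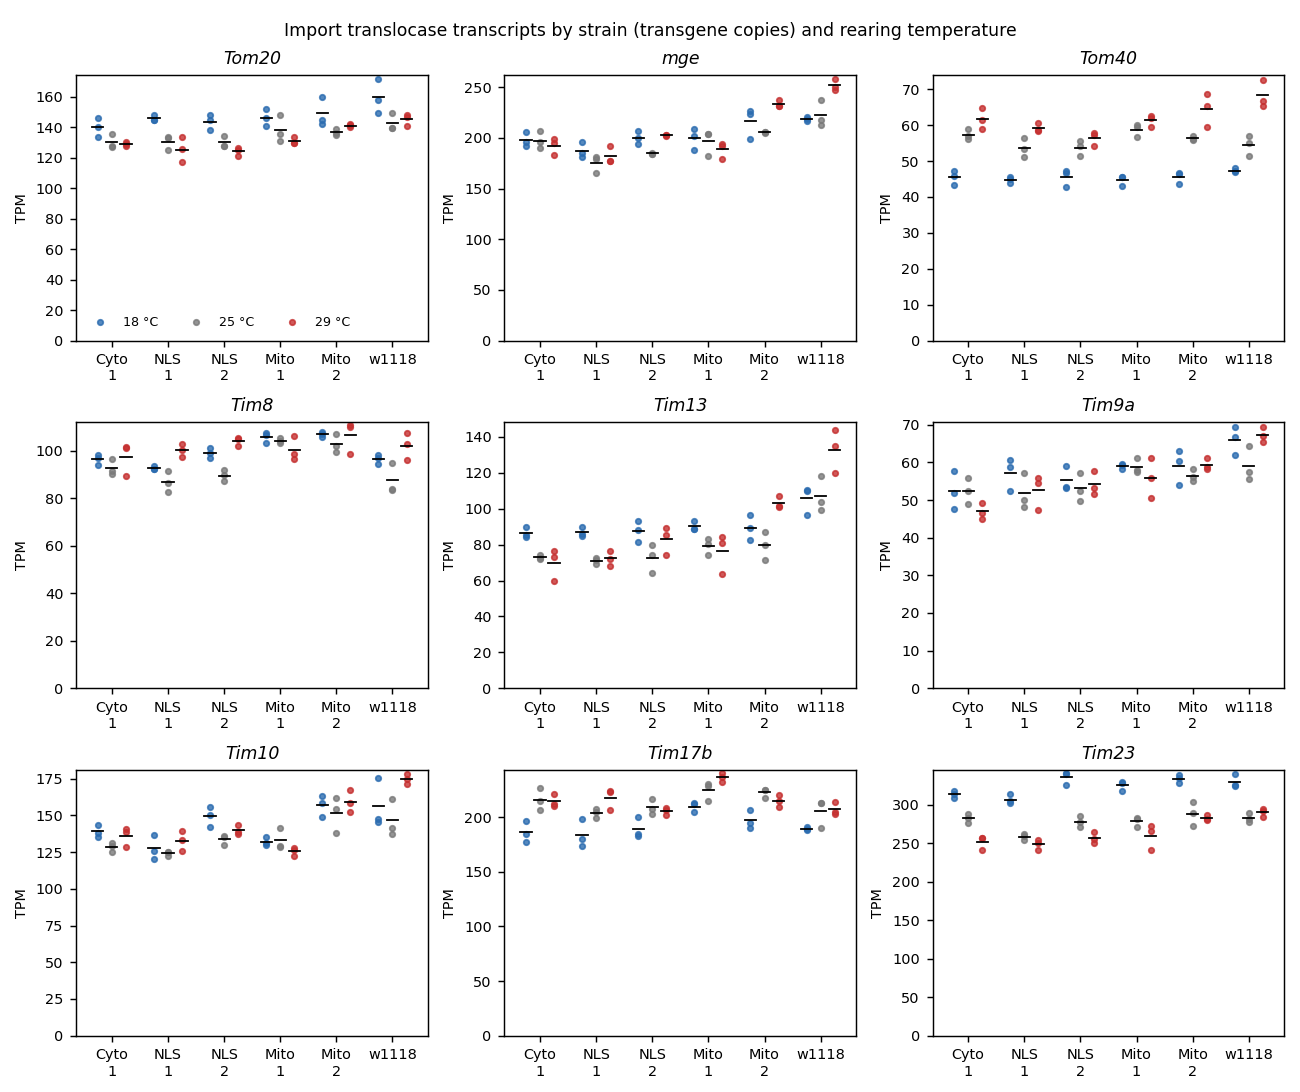
TPM of the 9 import genes in every library (points, y axis in TPM) by strain with its number of transgene copies (x axis) and rearing temperature (blue 18 °C, grey 25 °C, red 29 °C), with a bar at each mean of 3 libraries. Tim13 lies below the w1118 libraries of its temperature in all 15 transgene groups, and in every strain Tom40 is higher and Tim23 lower at 29 than at 18 °C. The share of all genes that lie below w1118 in this way was not computed.

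Against w1118, the transgene strains mostly had less RNA of these genes, and the largest difference was in Tim13. With the TPM values as deposited, 30 of 45 differences over the 5 strains and 9 genes were falls, 4 were rises and 11 did not pass the test. Of all genes tested, 35.3% to 41.0% fell and 19.6% to 31.1% rose in these comparisons. In Mito 2 copies flies 4 of the 9 genes fell, where 36.3% of all genes did. All 5 comparisons use the same w1118 libraries, so their directions are not independent of each other. Each difference below is the mean of the differences at 18, 25 and 29 °C, with 9 libraries a strain.

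Tim13 showed this in the single libraries. In Cyto flies it had 85.6, 84.0 and 89.6 TPM at 18 °C, 72.0, 72.4 and 74.5 TPM at 25 °C, and 59.7, 76.7 and 73.2 TPM at 29 °C. In w1118 flies it had 111, 110.0 and 96.7 TPM at 18 °C, 104, 99.1 and 119 TPM at 25 °C, and 144, 119.8 and 135 TPM at 29 °C. No Cyto library reached the lowest w1118 library of its temperature, and the same held in all 15 groups of transgene flies. The share of all genes that lay apart from w1118 in this way was not computed, here or for the genes below. Of all genes tested, 55.9% to 68.8% were called in the comparisons of strains with w1118. Tim13 fell by 0.58 (SE 0.05, adjusted p = 5.87e-13) in Cyto flies on the log2 scale, to 0.667 times its w1118 level. It fell by 0.58 in NLS 1 copy, 0.50 in NLS 2 copies, 0.48 in Mito 1 copy and 0.34 in Mito 2 copies flies (adjusted p = 8.06e-13, 4.41e-11, 1.29e-10 and 4.81e-07), and every one of these kept its direction and its call under each other scaling and without any one library.

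The receptors of the outer membrane were lower as well. In NLS 1 copy flies mge had 196, 185 and 181 TPM at 18 °C, 181, 166 and 179 TPM at 25 °C, and 177, 192 and 177 TPM at 29 °C. In w1118 flies it had 220.2, 217 and 218 TPM at 18 °C, 217, 213 and 237 TPM at 25 °C, and 258, 248 and 250.3 TPM at 29 °C. The NLS 1 copy libraries lay below all w1118 libraries of their temperature, as did those of 14 of 15 transgene groups. On the log2 scale mge fell by 0.23 in Cyto, 0.34 in NLS 1 copy, 0.23 in NLS 2 copies, 0.24 in Mito 1 copy and 0.08 in Mito 2 copies flies (SE 0.03 each). In Mito 2 copies flies its call ended without library 2 at 18 °C (-0.06, adjusted p = 0.0738) or w1118 library 3 at 25 °C (-0.06, adjusted p = 0.0628), and with median-ratio size factors (-0.03, adjusted p = 0.390).

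Tom20, the presequence receptor, fell by 0.16, 0.16, 0.17 and 0.11 on the log2 scale in Cyto, NLS 1 copy, NLS 2 copies and Mito 1 copy flies (SE 0.03 each). Its groups lay below w1118 without overlap in 11 of 15 cases. In Mito 2 copies flies it fell by 0.07 (adjusted p = 0.0413), and this call ended without any of 10 of the 18 libraries (adjusted p up to 0.139), with median-ratio size factors (-0.02, adjusted p = 0.661) and with quantile normalization (-0.06, adjusted p = 0.0617). In Mito 1 copy flies the call ended with quantile normalization (-0.04, adjusted p = 0.160). The channel gene Tom40 fell in NLS 1 copy (-0.10, adjusted p = 0.00198) and NLS 2 copies flies (-0.11, adjusted p = 0.000537), but with quantile normalization these values were -0.00 and -0.03 (adjusted p = 0.881 and 0.224). In Cyto, Mito 1 copy and Mito 2 copies flies Tom40 did not pass the test (-0.04, -0.04 and -0.03).

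Among the small TIMs, Tim9a fell by 0.34 in Cyto, 0.25 in NLS 1 copy, 0.24 in NLS 2 copies, 0.14 in Mito 1 copy and 0.13 in Mito 2 copies flies on the log2 scale (SE 0.04 each). The Mito 1 copy call ended with quantile normalization (-0.08, adjusted p = 0.0672) and the Mito 2 copies call with median-ratio size factors (-0.08, adjusted p = 0.109). Its partner Tim10 fell by 0.23 in Cyto, 0.30 in NLS 1 copy, 0.17 in NLS 2 copies and 0.28 in Mito 1 copy flies (SE 0.04 each). Tim10 did not pass the test in Mito 2 copies flies (-0.03, adjusted p = 0.552). The Tim10 values carry the uncertainty of its exons shared with CG42497, whose group means were 72.8 to 84.7 TPM in transgene flies and 76.4 to 84.5 TPM in w1118 flies.

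Tim8, the partner of Tim13, did not follow it. In Mito 2 copies flies Tim8 had 108, 106 and 107 TPM at 18 °C, 99.5, 107 and 102 TPM at 25 °C, and 109.8, 98.6 and 111 TPM at 29 °C. In w1118 flies it had 96.9, 98.3 and 94.4 TPM at 18 °C, 95.0, 84.0 and 83.6 TPM at 25 °C, and 96.2, 103 and 108 TPM at 29 °C. The groups were apart at 18 and 25 °C and overlapped at 29 °C. Tim8 rose by 0.14 on the log2 scale in Mito 2 copies flies and by 0.12 in Mito 1 copy flies (SE 0.03, adjusted p = 3.39e-05 and 0.000358), although at 29 °C alone the values were 0.06 and -0.02 (adjusted p = 0.388 and 0.709). In Cyto, NLS 1 copy and NLS 2 copies flies it did not pass the test (0.00, -0.03 and 0.03), but with quantile normalization it was higher in all of these (0.07, 0.08 and 0.12, adjusted p = 0.0379, 0.0107 and 0.000283), and with median-ratio size factors in NLS 2 copies flies (0.09, adjusted p = 0.0123).

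The ratio of Tim8 to Tim13 within a library shows the split without regard to the scaling of whole libraries. In Cyto flies it averaged 1.11 ± 0.05, 1.27 ± 0.06 and 1.40 ± 0.09 at 18, 25 and 29 °C (SD, n = 3). It averaged 1.20 ± 0.09, 1.30 ± 0.15 and 1.03 ± 0.06 in Mito 2 copies flies. In w1118 flies it averaged 0.915 ± 0.054, 0.824 ± 0.108 and 0.774 ± 0.096. The w1118 libraries lay between 0.668 and 0.976, and of the transgene libraries only library 2 of Mito 2 copies flies at 29 °C, with 0.970, came within that range. The ratio of Tim9a to Tim10 did not move the same way in all strains, with group means of 0.345 to 0.450 in transgene and 0.386 to 0.425 in w1118 flies. Mito 1 copy libraries lay above those of w1118 at 25 °C (0.4325 to 0.4522, against 0.3983 to 0.4073). They also did at 29 °C (0.413 to 0.4782, against 0.3761 to 0.3985), where Cyto libraries lay below those of w1118 (0.3242 to 0.3628).

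At the inner membrane, Tim17b and Tim23 went different ways. Tim17b, the partner of Tim23 in the presequence channel, had 213, 204 and 212 TPM at 18 °C and 232, 237 and 240.2 TPM at 29 °C in Mito 1 copy flies. In w1118 flies it had 191, 188 and 189.6 TPM at 18 °C and 205, 214 and 203 TPM at 29 °C. The Mito 1 copy libraries were above all w1118 libraries at these temperatures. Tim17b rose by 0.15 on the log2 scale in Mito 1 copy flies (SE 0.03, adjusted p = 5.34e-06). It rose by 0.08 in Mito 2 copies flies (adjusted p = 0.0175), a call that ended without library 3 at 18 °C (0.06, adjusted p = 0.0505) or w1118 library 3 at 25 °C (0.06, adjusted p = 0.0683). In Cyto, NLS 1 copy and NLS 2 copies flies it did not pass the test (0.03, 0.01 and 0.00), except with quantile normalization in Cyto and NLS 1 copy flies (0.07 in both, adjusted p = 0.0344 and 0.0326). Tim23 fell by 0.09 in Cyto, 0.15 in NLS 1 copy, 0.06 in NLS 2 copies and 0.07 in Mito 1 copy flies (SE 0.02 each). Of these, the NLS 2 copies and Mito 1 copy calls ended with quantile normalization (-0.05 and -0.04, adjusted p = 0.0743 and 0.144) and with median-ratio size factors (-0.00 and -0.04, adjusted p = 0.967 and 0.163). Tim23 did not pass the test in Mito 2 copies flies (0.00, adjusted p = 0.988).

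Many genes differed between these strains, which sets the background for the counts. In Cyto flies 6 of 9 import genes fell, where 35.3% of all genes tested fell, and none rose, where 31.1% of all genes did. In NLS 1 copy flies 7 fell (38.3% of all genes) and none rose (30.5%), and in NLS 2 copies flies 7 fell (41.0%) and none rose (26.1%). In Mito 1 copy flies 2 rose (26.6%) and 6 fell (36.7%), and in Mito 2 copies flies 2 rose (19.6%) and 4 fell (36.3%). These counts depended on the scaling. With quantile normalization 2 rose and 6 fell in Cyto and in NLS 1 copy flies. Under it 1 rose and 5 fell in NLS 2 copies, and 2 rose and 3 fell in Mito 1 copy flies. With median-ratio size factors 1 rose and 6 fell in NLS 2 copies flies. The median differences of the 9 genes were -0.16 in Cyto, -0.16 in NLS 1 copy, -0.17 in NLS 2 copies, -0.11 in Mito 1 copy and -0.03 in Mito 2 copies flies. The last of these was 0.02 with median-ratio size factors, and then 2 genes rose and 1 fell. The medians of all genes were -0.01, -0.02, -0.05, -0.03 and -0.05 in the same order of strains. Of all genes called, 39% were higher in NLS 2 copies flies and 35% in Mito 2 copies flies, against 49.7% and 48.2% with quantile normalization and 50.2% and 49.2% with median-ratio size factors.

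**Figure D2:**
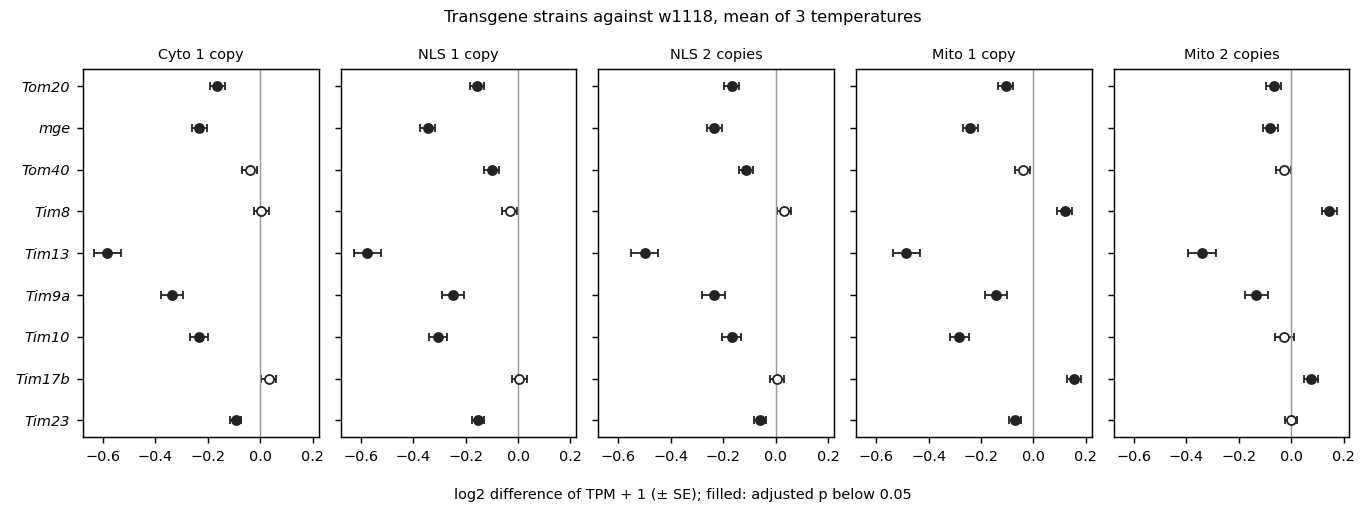
Difference of each transgene strain from w1118 in log2(TPM + 1), as the mean over 3 temperatures ± SE (x axis), for the 9 genes (rows), with filled points where the adjusted p was below 0.05. Tim13 is the lowest point in every panel, at -0.58 to -0.34, and Tim8 and Tim17b lie above 0 with filled points in the Mito panels, although the filled Tim17b point of Mito 2 copies does not keep its call without 1 of 2 libraries.

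Rearing temperature moved Tom40 and Tim23 in opposite directions within every strain. Tom40 had 45.8, 43.5 and 47.2 TPM at 18 °C, 58.8, 56.9 and 56.2 TPM at 25 °C, and 61.6, 59.0 and 64.8 TPM at 29 °C in Cyto flies. It had 47.1, 47.9 and 46.8 TPM at 18 °C, 54.9, 51.5 and 56.9 TPM at 25 °C, and 72.6, 65.4 and 66.8 TPM at 29 °C in w1118 flies. In both strains all 29 °C libraries exceeded all 18 °C libraries. From 18 to 29 °C Tom40 rose by 0.43 in Cyto, 0.40 in NLS 1 copy, 0.30 in NLS 2 copies, 0.45 in Mito 1 copy, 0.49 in Mito 2 copies and 0.52 in w1118 flies on the log2 scale (SE 0.05 each, adjusted p = 1.58e-06 or smaller). In w1118 flies this was 1.43 times the 18 °C level. These 6 calls held under every scaling and without any one library.

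Tim23 had 341, 326 and 340.2 TPM at 18 °C, 285, 278 and 272 TPM at 25 °C, and 249.9, 255 and 265 TPM at 29 °C in NLS 2 copies flies. It had 326, 340.4 and 324 TPM at 18 °C, 278, 282 and 289 TPM at 25 °C, and 294, 292 and 284 TPM at 29 °C in w1118 flies. The 18 °C libraries were the highest in both strains, and between 25 and 29 °C the w1118 libraries overlapped. Tim23 fell by 0.32 in Cyto, 0.30 in NLS 1 copy, 0.39 in NLS 2 copies, 0.33 in Mito 1 copy, 0.24 in Mito 2 copies and 0.18 in w1118 flies (SE 0.04 each, adjusted p = 8.17e-05 or smaller). Tim17b rose by 0.20 in Cyto, 0.25 in NLS 1 copy, 0.12 in NLS 2 copies, 0.17 in Mito 1 copy, 0.12 in Mito 2 copies and 0.13 in w1118 flies (SE 0.05 each). The Tim17b calls of NLS 2 copies, Mito 2 copies and w1118 flies ended with quantile normalization (0.10, 0.02 and 0.01, adjusted p = 0.105, 0.812 and 0.883) and without any of 4, 4 and 2 of their 6 libraries (adjusted p up to 0.120). With median-ratio size factors those of Cyto, NLS 2 copies and Mito 2 copies flies ended (0.14, 0.09 and 0.10, adjusted p = 0.0540, 0.207 and 0.159).

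The ratio of Tim17b to Tim23 followed from this. It averaged 0.593 ± 0.027, 0.766 ± 0.048 and 0.853 ± 0.053 at 18, 25 and 29 °C in Cyto flies (SD, n = 3). It averaged 0.645 ± 0.022, 0.807 ± 0.040 and 0.913 ± 0.043 in Mito 1 copy flies. In w1118 flies it averaged 0.574 ± 0.020, 0.726 ± 0.059 and 0.715 ± 0.018. In each of these strains the 29 °C libraries lay above all 18 °C libraries, while in w1118 flies the 25 and 29 °C libraries overlapped. The ratio of the channel gene Tom40 to the receptor gene Tom20 averaged 0.325, 0.441 and 0.480 in Cyto flies and 0.298, 0.382 and 0.470 in w1118 flies at 18, 25 and 29 °C.

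The receptor genes did not share one course. Tom20 fell between 18 and 29 °C by 0.12 in Cyto, 0.22 in NLS 1 copy, 0.21 in NLS 2 copies, 0.16 in Mito 1 copy and 0.13 in w1118 flies (SE 0.05 each), and did not pass the test in Mito 2 copies flies (-0.08, adjusted p = 0.180), where it was lower with quantile normalization (-0.23, adjusted p = 7.88e-05). The Cyto call ended without any of 5 of its 6 libraries (adjusted p up to 0.198), and the w1118 call ended without w1118 library 1 at 18 °C (-0.08, adjusted p = 0.221) or library 3 at 29 °C (-0.11, adjusted p = 0.0933). In w1118 flies mge rose by 0.21 (SE 0.05, adjusted p = 0.000584). Its values were -0.04, -0.04, 0.02, -0.08 and 0.11 in Cyto, NLS 1 copy, NLS 2 copies, Mito 1 copy and Mito 2 copies flies, none of which passed. It was lower in Cyto flies with median-ratio size factors (-0.11, adjusted p = 0.0450) and in Mito 1 copy flies with quantile normalization (-0.11, adjusted p = 0.0335). It was higher in Mito 2 copies flies without library 1 at 18 °C (0.14, adjusted p = 0.0286) or library 3 at 18 °C (0.14, adjusted p = 0.0427).

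The small TIM gene Tim13 fell with temperature in 3 transgene strains and rose in w1118. Between 18 and 29 °C it fell by 0.31 in Cyto, 0.26 in NLS 1 copy and 0.25 in Mito 1 copy flies (SE 0.09, adjusted p = 0.00413, 0.0134 and 0.0191). In w1118 flies it rose by 0.32 (SE 0.09, adjusted p = 0.00230). The values of -0.08 in NLS 2 copies and 0.21 in Mito 2 copies flies did not pass (adjusted p = 0.475 and 0.0504), but the Mito 2 copies value passed when that strain was fitted alone (0.21, adjusted p = 0.0453) and without library 3 at 18 °C (0.26, adjusted p = 0.0289). The Cyto call ended without library 1 at 29 °C (-0.20, adjusted p = 0.0775). The Mito 1 copy call ended without library 1 at 29 °C (-0.13, adjusted p = 0.264) or library 3 at 18 °C (-0.23, adjusted p = 0.0664), and the NLS 1 copy call without library 1 at 18 °C (-0.24, adjusted p = 0.0515) or library 1 at 29 °C (-0.22, adjusted p = 0.0663). Tim10 rose in w1118 flies (0.17, adjusted p = 0.0184), a call that ended without any of 3 of 6 libraries (adjusted p up to 0.134) and with quantile normalization (0.03, adjusted p = 0.677). Tim8 and Tim9a did not pass in any strain with the TPM values as deposited. Under the alternatives, Tim9a in Cyto flies was lower without library 2 at 18 °C (-0.22, adjusted p = 0.0277), with quantile normalization (-0.18, adjusted p = 0.0254) and with median-ratio size factors (-0.22, adjusted p = 0.0149). Tim8 was lower in Mito 2 copies flies with quantile normalization (-0.12, adjusted p = 0.0425) and higher in NLS 1 copy flies without library 2 at 29 °C (0.13, adjusted p = 0.0491).

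By strain, 2 of 9 genes rose and 3 fell between 18 and 29 °C in Cyto flies, where 30.3% and 19.5% of all genes did. In NLS 1 copy flies 2 rose and 3 fell (24.7% and 27.8% of all genes), and in NLS 2 copies flies 2 rose and 2 fell (29.8% and 24.2%). In Mito 1 copy flies 2 rose and 3 fell (26.0% and 22.9%), and in Mito 2 copies flies 2 rose and 1 fell (32.3% and 21.9%). In w1118 flies 5 rose and 2 fell (28.9% and 27.1%), and 3 rose and 1 fell when w1118 libraries were fitted alone. The medians of the 9 genes were -0.04, -0.04, -0.03, -0.08, 0.02 and 0.13 in Cyto, NLS 1 copy, NLS 2 copies, Mito 1 copy, Mito 2 copies and w1118 flies. With quantile normalization the Mito 2 copies value was -0.10, with 1 gene rising and 3 falling, and the w1118 value 0.01, with 3 rising and 2 falling. With median-ratio size factors the Cyto value was -0.11, with 1 gene rising and 5 falling. Of all genes called, 60.8% were higher at 29 °C in Cyto flies, against 47.3% with median-ratio size factors, and 59.6% in Mito 2 copies flies, against 49.2% with quantile normalization.

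**Figure D3:**
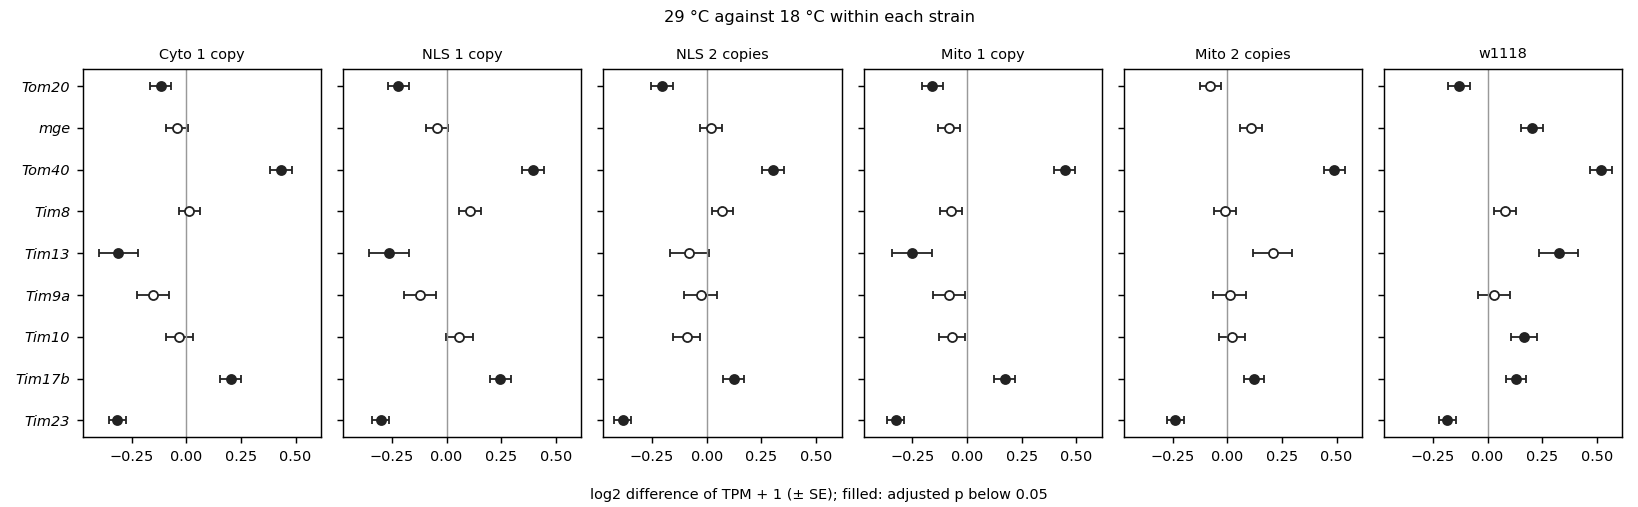
Difference between 29 and 18 °C within each strain in log2(TPM + 1) ± SE (x axis), for the 9 genes (rows), 3 libraries at each temperature, filled where the adjusted p was below 0.05. Tom40 lies at 0.30 to 0.52 and Tim23 at -0.39 to -0.18 in all 6 strains, while Tim13 lies at -0.31 in Cyto and 0.32 in w1118.

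The test of the difference itself asked whether a transgene strain departed from w1118 by a different amount at 29 °C than at 18 °C. Tim13 was 0.92 below w1118 at 29 °C and 0.29 below at 18 °C in Cyto flies, on the log2 scale. The change in difference was -0.64 in Cyto (SE 0.13, adjusted p = 0.000280), -0.59 in NLS 1 copy, -0.40 in NLS 2 copies and -0.58 in Mito 1 copy flies (adjusted p = 0.000804, 0.0211 and 0.000869). In NLS 2 copies flies the call ended without any of 4 of 12 libraries (adjusted p up to 0.0895). In Mito 2 copies flies the change was -0.12 and did not pass (adjusted p = 0.607). For mge the change passed in Cyto (-0.25, adjusted p = 0.00773), NLS 1 copy (-0.25, adjusted p = 0.00828) and Mito 1 copy flies (-0.29, adjusted p = 0.00241), and in NLS 2 copies flies it passed with median-ratio size factors (-0.24, adjusted p = 0.00562) but not as deposited (-0.19, adjusted p = 0.0567).

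Tim10 and Tim23 passed this test in NLS 2 copies (-0.26 and -0.20, adjusted p = 0.0281 and 0.00690) and Mito 1 copy flies (-0.24 and -0.14, adjusted p = 0.0351 and 0.0456), and Tom40 in NLS 2 copies flies (-0.21, adjusted p = 0.0238). These 5 calls were lost with quantile normalization (adjusted p = 0.0532 to 0.296), and all but that of Tim23 in NLS 2 copies flies were lost without any of 4 to 7 of 12 libraries. In all, 2 of 9 genes passed downward in Cyto flies (14.4% of all genes), 2 in NLS 1 copy (15.5%), 4 in NLS 2 copies (9.40%) and 4 in Mito 1 copy flies (15.0%), and none passed upward. With quantile normalization Tim17b passed upward in Cyto (0.20, adjusted p = 0.0382) and NLS 1 copy flies (0.22, adjusted p = 0.0208). With median-ratio size factors 5 passed downward in Cyto flies. None of 9 passed in Mito 2 copies flies with limma, where 15.5% of all genes passed in either direction, and none had an unadjusted p under 0.05.

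The copy number of the transgene was compared within a targeting signal. Tim10 had 159, 149 and 163 TPM at 18 °C, 162, 154 and 138 TPM at 25 °C, and 167, 152 and 159 TPM at 29 °C in Mito 2 copies flies. It had 131, 135 and 129.8 TPM at 18 °C, 129, 142 and 128 TPM at 25 °C, and 123, 126 and 128 TPM at 29 °C in Mito 1 copy flies. The groups overlapped at 25 °C alone. Between Mito 2 copies and Mito 1 copy flies Tim10 rose by 0.26 (SE 0.04, adjusted p = 1.75e-07), mge by 0.16, Tim13 by 0.14 and Tim23 by 0.07 on the log2 scale, and Tim17b fell by 0.08. Thus 4 of 9 rose and 1 fell, where 18.9% and 23.3% of all genes did. By temperature, the Tim13 difference was -0.02 at 18 °C, 0.00 at 25 °C and 0.44 at 29 °C, where it passed (adjusted p = 0.000111). Tim10 passed at each temperature (0.25, 0.18 and 0.34), and mge (0.31), Tim23 (0.12) and Tim17b (-0.14) passed at 29 °C but not at 18 or 25 °C. The Tim13 call (adjusted p = 0.0248) ended without any of 4 of 18 libraries (adjusted p up to 0.104) and with quantile normalization (0.11, adjusted p = 0.0573). That of Tim23 ended with quantile normalization (0.04, adjusted p = 0.110) and that of Tim17b with median-ratio size factors (-0.06, adjusted p = 0.177). Between NLS 2 copies and NLS 1 copy flies 3 of 9 genes rose (12.8% of all genes), Tim10 by 0.14, mge by 0.11 and Tim23 by 0.09 (adjusted p = 0.00266, 0.00370 and 0.00130), and none fell.

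Targeting signals were compared at equal copy number. Between Mito 1 copy and Cyto flies 3 genes rose, Tim9a by 0.19, Tim17b by 0.12 and Tim8 by 0.12 (adjusted p = 0.000641, 0.000677 and 0.00195), where 9.69% of all genes rose. Between Mito 1 copy and NLS 1 copy flies 4 genes rose (19.2% of all genes), Tim8 by 0.15, Tim17b by 0.15, mge by 0.10 and Tim23 by 0.08. Taken by temperature, this Tim8 difference was 0.19 at 18 °C, 0.26 at 25 °C and 0.00 at 29 °C (adjusted p = 0.982), and at 29 °C none of the 9 passed with limma and 1 had an unadjusted p under 0.05. Between NLS 1 copy and Cyto flies 2 genes fell (22.6% of all genes), mge by 0.11 and Tim23 by 0.06, and the Tim23 call (adjusted p = 0.0383) ended without any of 11 of 18 libraries (adjusted p up to 0.0867), with quantile normalization (-0.04, adjusted p = 0.152) and with median-ratio size factors (-0.02, adjusted p = 0.532). Tim9a was higher in NLS 1 copy than in Cyto flies under these scalings (0.13 and 0.12, adjusted p = 0.0101 and 0.0252), so that 1 gene rose and 1 fell under either. In these comparisons 36.6%, 61.9% and 29.6% of all genes called were higher, against 47.3%, 50.7% and 48.2% with quantile normalization.

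Between Mito 2 copies and NLS 2 copies flies all 9 genes rose, by 0.06 (Tim23) to 0.16 (Tim13 and mge) on the log2 scale, where 24.7% of all genes rose. This count depended on the scaling, with 2 of 9 passing after quantile normalization and 6 with median-ratio size factors, and all 9 values stayed above 0 under both. At 18 °C alone none of the 9 passed with limma in this comparison, 2 had an unadjusted p under 0.05, and Tim23 was at -0.01. The calls of Tim9a, Tim17b and Tim23 each ended without any of 12, 6 and 4 of 18 libraries (adjusted p up to 0.104).

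Across the 18 group means, the 9 genes formed no single pattern. Of 36 pairs, 27 had a positive Pearson r, 13 had r above 0.5 and the median was 0.344. The highest values joined mge with Tim10 (0.905) and mge with Tim13 (0.899), and the lowest joined Tom40 with Tim23 (-0.747) and Tim17b with Tim23 (-0.652). These are descriptions over group means that share strains, temperatures and the scaling of each library. Among 10484 genes with a mean of at least 5 TPM, the mean course of the 9 was most like that of CG44296 (r = 0.974), CG13032 (0.970), CG3967 (0.968), CG31287 (0.967) and SdhAL (0.965). The gene most like Tim13 was CG5327 (0.955), that most like mge was CG5762 (0.984) and that most like Tom40 was CG15909 (0.972).

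Testis markers moved with several of these genes. Of the 16 markers, which include the sperm protamine genes ProtA and ProtB and the Mst84D and Mst98C sperm-tail genes, 11 fell and 2 rose in Cyto, 14 fell and 1 rose in NLS 1 copy, 12 fell and 1 rose in NLS 2 copies, 12 fell and 1 rose in Mito 1 copy, and 6 fell and 3 rose in Mito 2 copies flies against w1118. In these comparisons 35.3% to 41.0% of all genes fell and 19.6% to 31.1% rose. From 18 to 29 °C, 10 of the 16 testis markers rose and none fell in w1118 flies (28.9% and 27.1% of all genes). In Mito 2 copies flies 9 rose and none fell (32.3% and 21.9%). In Cyto, NLS 1 copy, NLS 2 copies and Mito 1 copy flies 1, 1, 4 and 1 rose over these temperatures. In the same order 1, 5, 0 and 3 fell, where 24.7% to 30.3% of all genes rose and 19.5% to 27.8% fell. The summed markers averaged 6883, 6541 and 6560 TPM in Cyto flies at 18, 25 and 29 °C, 7268, 6913 and 8477 TPM in Mito 2 copies flies, and 6945, 7110 and 8529 TPM in w1118 flies. Over the 18 group means, which share libraries and scaling with the genes, r with this sum was 0.922 for mge, 0.812 for Tim13, 0.774 for Tim10, 0.634 for Tim9a and 0.523 for Tom20. It was 0.489 for Tim8, 0.318 for Tim23, 0.242 for Tom40 and -0.05 for Tim17b. Against w1118, 7, 7, 8, 9 and 9 of 12 flight muscle markers rose in Cyto, NLS 1 copy, NLS 2 copies, Mito 1 copy and Mito 2 copies flies. In the same order 2, 1, 0, 1 and 0 fell, where 19.6% to 31.1% of all genes rose and 35.3% to 41.0% fell. Accessory gland markers rose in 1, 3, 1, 1 and 1 of 8 cases in this order and fell in 6, 0, 1, 2 and 1. Eye markers rose in 7, 9, 5, 7 and 4 of 10 cases in the same order of strains and fell in 0, 1, 2, 0 and 3 of 10, and 5 of 9 midgut markers fell in each strain while 4, 4, 4, 4 and 3 rose. From 18 to 29 °C, accessory gland markers fell in 6, 7, 7, 6 and 5 of 8 cases in these strains (medians -0.77, -0.97, -0.62, -0.75 and -0.37) and 7 of 8 fell in w1118 flies (median -0.87). In each transgene strain 1 of 8 rose, and in w1118 flies none did. Over the same temperatures, 4, 9, 12, 8 and 11 of 12 flight muscle markers fell in the transgene strains and 4 in w1118 flies. In Cyto flies 2 of 12 rose. Eye markers rose in 8, 8, 7, 8 and 8 of 10 cases, against 6 in w1118 flies, where 2 fell. Of all genes, 24.7% to 32.3% rose and 19.5% to 27.8% fell over these temperatures. The part of these tissues in the results was not tested.

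**Figure D4:**
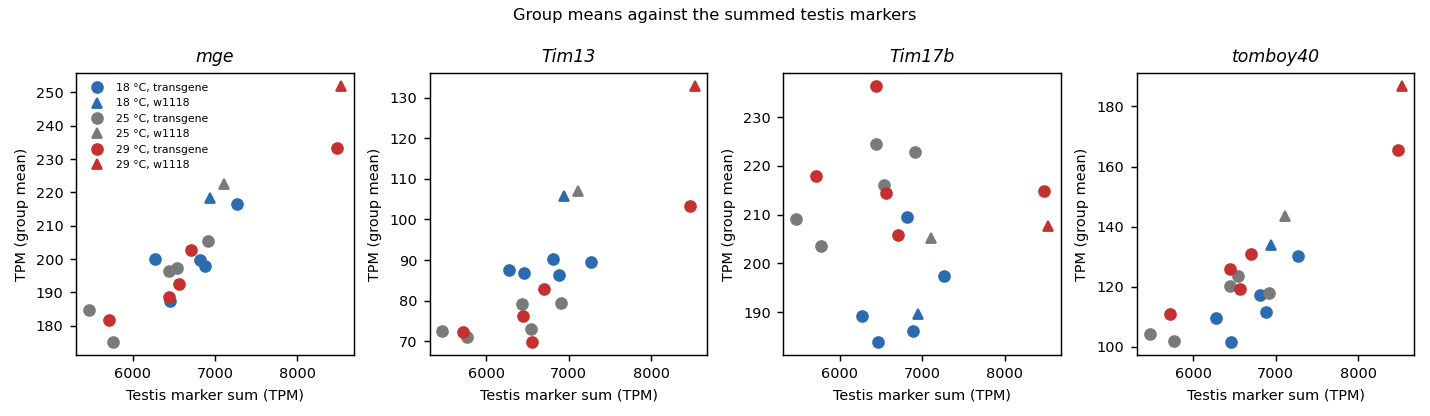
Group means of mge, Tim13, Tim17b and the germline variant tomboy40 (y axis, TPM) against the summed testis markers (x axis, TPM), 1 point per strain and temperature, circles for transgene strains and triangles for w1118, axes not starting at 0. mge climbs with the sum (r = 0.922), Tim17b does not (r = -0.05), and w1118 at 29 °C is the point farthest right.

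Other import genes were counted from a list of 30, of which 29 were in the table. Against w1118, 22 fell and 4 rose in Cyto flies (median -0.20), 21 and 3 in NLS 1 copy (-0.29), 20 and 3 in NLS 2 copies (-0.22), 20 and 3 in Mito 1 copy (-0.16), and 12 and 5 in Mito 2 copies flies (-0.03). Of all genes tested, 35.3% fell and 31.1% rose in Cyto, 38.3% and 30.5% in NLS 1 copy, 41.0% and 26.1% in NLS 2 copies, 36.7% and 26.6% in Mito 1 copy, and 36.3% and 19.6% in Mito 2 copies flies, with medians of -0.01 to -0.05. The germline variant of the channel gene, tomboy40, had 98.5, 132 and 127 TPM in Cyto flies at 29 °C and 201, 170.4 and 189 TPM in w1118 flies at 29 °C. These libraries did not overlap. It fell by 0.38 in Cyto, 0.54 in NLS 1 copy, 0.42 in NLS 2 copies, 0.34 in Mito 1 copy and 0.16 in Mito 2 copies flies, and its r with the testis marker sum was 0.875. The receptor variant tomboy20 fell by 0.31, 0.48, 0.28 and 0.16 in Cyto, NLS 1 copy, NLS 2 copies and Mito 1 copy flies and did not pass in Mito 2 copies flies (0.04, adjusted p = 0.534).

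In each library tomboy40 exceeded Tom40, with mean ratios of 1.87 to 2.86 in transgene groups and 2.64 to 2.83 in w1118 groups. The Tim17 paralogs fell where Tim17b did not. Tim17a1 fell by 0.45, 0.63, 0.51, 0.58 and 0.46 in Cyto, NLS 1 copy, NLS 2 copies, Mito 1 copy and Mito 2 copies flies, and Tim17b1 by 0.63, 0.60, 0.46, 0.45 and 0.31. Tim17b2 fell by 0.43, 0.57, 0.50, 0.41 and 0.18, and Tim17a2 by 0.93, 0.50, 0.37 and 0.32 but did not pass in Mito 2 copies flies (-0.10, adjusted p = 0.266). Tim9b, a paralog of the small TIMs, did not pass in any strain. Reads could be split between paralogs if their sequences are alike, and the counting rule is not given in the sources used here.

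Among motor and processing genes, Roe1, the nucleotide exchange factor of the matrix Hsp70, fell by 0.54 in Cyto, 0.59 in NLS 1 copy, 0.42 in NLS 2 copies, 0.53 in Mito 1 copy and 0.24 in Mito 2 copies flies. The motor gene blp, the fly form of yeast Pam16, fell by 0.33, 0.46, 0.38, 0.34 and 0.33. CG9240, listed as a subunit of the inner membrane peptidase, rose by 0.55, 0.56, 0.60, 0.48 and 0.33, and UQCR-C1, listed with the presequence peptidases, rose most in Mito 2 copies flies (0.30, adjusted p = 1.07e-11). From 18 to 29 °C in w1118 flies 20 of the 29 rose and 4 fell (median 0.32), where 28.9% and 27.1% of all genes did (median 0.00), among the rises tomboy40 by 0.47 and tomboy20 by 0.38. In Mito 2 copies flies 18 rose and 2 fell (median 0.22), where 32.3% and 21.9% of all genes did (median 0.05). In Cyto, NLS 1 copy, NLS 2 copies and Mito 1 copy flies 11, 9, 12 and 9 rose (medians 0.085 to 0.104). In the same order 7, 6, 2 and 6 fell, where 24.7% to 30.3% of all genes rose and 19.5% to 27.8% fell.

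**Figure D5:**
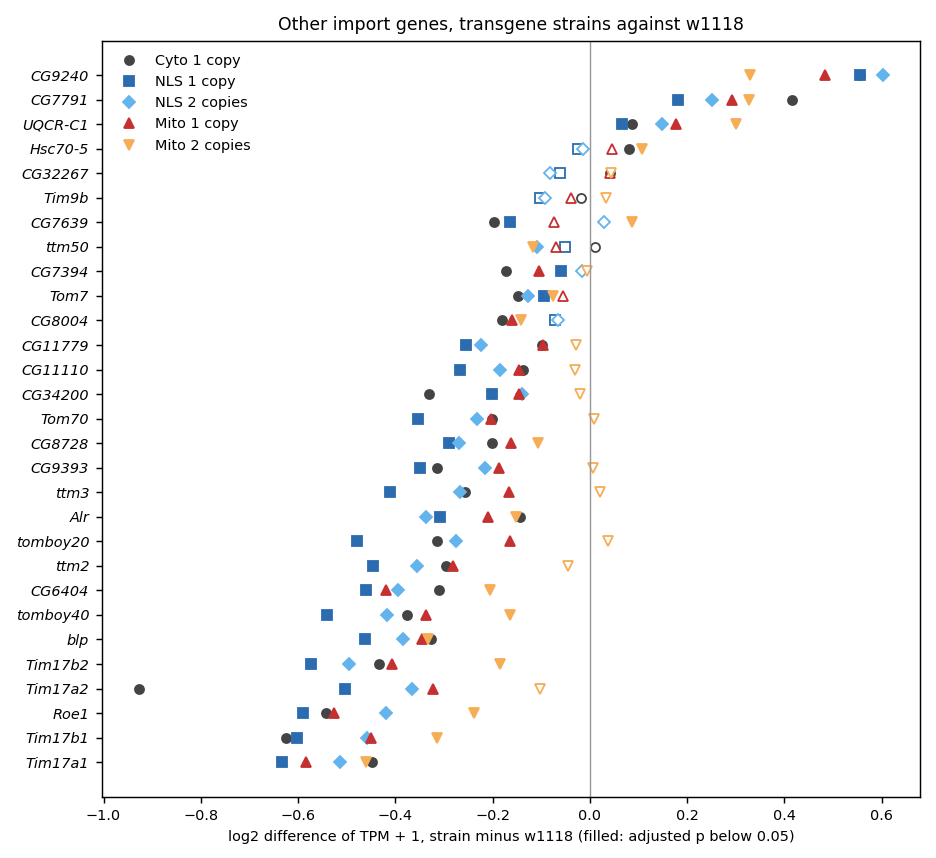
Difference of each transgene strain from w1118 in log2(TPM + 1) (x axis) for 29 other import genes (rows, sorted), 1 marker per strain, filled where the adjusted p was below 0.05. Most genes lie left of 0, Tim17a2 in Cyto flies is farthest left at -0.93, and CG9240 is farthest right at 0.60 in NLS 2 copies flies.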

How the data were processed

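The authors deposited TPM values per gene symbol for 54 libraries made, per the labels' protocols, from TRIzol RNA of whole flies with the TruSeq RNA v2 kit. The submitters' processing notes name the builds BDGP6 and dm6. Neither aligner nor counter is given in the sources used here, and TPM keeps no read depth, so no counting interval was computed. Libraries were grouped by strain and temperature. A gene was tested if 3 or more libraries had 1 TPM or more, which held for 12555 genes. The model, limma 3.58.1 in R 4.3.3 on log2(TPM + 1), gave each group its mean and used an intensity trend, 36 residual degrees of freedom and two-sided tests, with Benjamini-Hochberg adjustment at 0.05 within each of 22 comparisons. The fit was tested on simulated data. A pseudocount of 1 understates changes of low genes.

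The members and lists were chosen with earlier results of these data known. All 9 members are named, with the 3 other import genes of smallest adjusted p in each comparison with w1118 and the paralogs. List genes were matched by symbol, by a listed alternate name (Sam50 as CG7639 and Tim14 as CG7394) or by RefSeq synonym. Tim22, the testis gene don and the male markers roX1 and roX2 did not match. As alternatives, the pseudocount was 0.1, the filter was dropped, libraries were scaled by quantiles or by median-ratio size factors, the replicate number was a block, the strains compared were fitted alone, temperatures were taken singly, and each library was left out in turn.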

Additional observations from a re-analysis of the deposited data

Results flagged for a closer look

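These are the 12 cases in which the difference of a transgene strain from w1118 changed between 18 and 29 °C by the test of that change (limma, adjusted over all genes). In Cyto flies the change was -0.64 for Tim13 and -0.25 for mge on the log2 scale (adjusted p = 0.000280 and 0.00773). In NLS 1 copy flies it was -0.59 for Tim13 and -0.25 for mge (adjusted p = 0.000804 and 0.00828). In NLS 2 copies flies it was -0.40 for Tim13, -0.26 for Tim10, -0.21 for Tom40 and -0.20 for Tim23 (adjusted p = 0.0211, 0.0281, 0.0238 and 0.00690). In Mito 1 copy flies it was -0.58 for Tim13, -0.29 for mge, -0.24 for Tim10 and -0.14 for Tim23 (adjusted p = 0.000869, 0.00241, 0.0351 and 0.0456). At 18 and 29 °C the summed testis markers averaged 6945 and 8529 TPM in w1118 and 6883 and 6560 TPM in Cyto flies. They averaged 6458 and 5713 TPM in NLS 1 copy, 6271 and 6704 TPM in NLS 2 copies and 6812 and 6441 TPM in Mito 1 copy flies. By the same test 9 and 9 of 16 markers passed downward in Cyto and NLS 1 copy flies (14.4% and 15.5% of all genes). In NLS 2 copies and Mito 1 copy flies 2 and 7 did (9.40% and 15.0%). No marker passed upward in these strains. The part of the testis markers in these changes was not tested. All 4 comparisons share the w1118 libraries.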

How the results depend on the processing

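The pseudocount of 0.1, the absence of a filter and the replicate block each left all 198 gene results on their side of the threshold. The block is no pairing: in 1 of 39 pairs of groups did same-numbered libraries all correlate above 0.1. Quantile normalization ended 26 calls, added 12 in the direction as deposited and added 1 more with its sign turned. Median-ratio size factors ended 14 and added 9, and fitting only the strains compared ended 14 and added 2. The signs turned in Tim8 of NLS 1 copy against w1118 with quantile normalization (0.084, adjusted p = 0.0107), and, at 1 temperature, in Tim23 of NLS 2 copies against w1118 (0.023, 18 °C), Tim13 of Mito 2 copies against Mito 1 copy (-0.016, 18 °C), Tim23 of Mito 2 copies against NLS 2 copies (-0.0084, 18 °C) and Tim8 of Mito 1 copy against w1118 (-0.024, 29 °C). For the other scalings, fits and single temperatures, counts of genes called are listed here only where they moved by a factor above 1.5 or to 0. Smaller moves are left out. Genes called moved with quantile normalization to 5 in Mito 1 copy against w1118, 3 in Mito 2 copies against Mito 1 copy and 2 against NLS 2 copies, and in the change of difference to 1 in NLS 2 copies and 2 in Mito 1 copy flies. With median-ratio size factors they moved to 3 in Mito 2 copies against w1118 and to 5 in the change of difference of Cyto flies. Fitted alone, they were 4 for temperature in w1118, 2 for the change in Mito 1 copy flies and 1 for NLS 1 copy against Cyto. At 18 °C alone, against w1118, they were 4 in NLS 2 copies and 2 in Mito 2 copies flies, and between strains 1 (Mito 2 copies and Mito 1 copy), 0 (NLS 1 copy and Cyto), 1 (Mito 1 copy and Cyto), 2 (Mito 1 copy and NLS 1 copy) and 0 (Mito 2 copies and NLS 2 copies). At 25 °C they were 3, 4 and 3 in NLS 2 copies, Mito 1 copy and Mito 2 copies flies against w1118, 0 for NLS copies, 1 for Mito copies, 1 for Mito 1 copy and Cyto, and 3 for Mito 2 copies and NLS 2 copies. At 29 °C they were 1 in Mito 2 copies against w1118, 1 for NLS copies, 0 for NLS 1 copy and Cyto, 1 for Mito 1 copy and Cyto, and 0 for Mito 1 copy and NLS 1 copy. Where these limma counts were 0, 1 gene had an unadjusted p under 0.05, or 2 for Mito 2 copies and NLS 2 copies. Each temperature alone has 3 libraries a group. The causes were not tested. Leaving out 1 library at a time, genes called were 3 to 6 in Mito 2 copies against w1118 (3 without w1118 library 3 at 25 °C), and 6, 7, 7 and 8 throughout in the other strains. For temperature they were 5 to 7 in w1118, 3 to 6 in Cyto, 4 to 6 in NLS 1 copy, 3 to 4 in NLS 2 copies, 4 to 5 in Mito 1 copy and 2 to 5 in Mito 2 copies flies. For the change of difference they were 2 to 3 in Cyto, 2 in NLS 1 copy, 2 to 4 in NLS 2 copies, 2 to 5 in Mito 1 copy and 0 in Mito 2 copies flies. Between strains they were 3 (NLS copies), 4 to 5 (Mito copies), 1 to 2 (NLS 1 copy and Cyto), 3 to 4 (Mito 1 copy and Cyto), 4 to 6 (Mito 1 copy and NLS 1 copy) and 6 to 9 (Mito 2 copies and NLS 2 copies). Of 101 calls, 79 held in every such fit. Of all genes with a changed difference, 55.4%, 52.9% and 60.6% were higher in Cyto, NLS 2 copies and Mito 2 copies flies, against 35.5%, 35.3% and 48.6% with median-ratio size factors.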
